A study of Homo sapiens with 18 samples.

Results

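The genes described here encode the proteins of the cytosolic ribosome. They were chosen by name, as every row of the count table with an RPL or RPS symbol followed by a number, together with *RPLP0*, *RPLP1*, *RPLP2* and *RPSA*, and with a mean of at least 100 counts over 18 libraries. Of the 25435 rows of the table, 85 carry such a symbol and 79 reached the minimum. These 79 genes comprise 40 of the large subunit, 30 of the small subunit, the 3 stalk genes and 6 paralogs of another ribosomal protein gene (*RPL7L1*, *RPL22L1*, *RPL26L1*, *RPL36AL*, *RPL39L* and *RPS27L*). The lowest genes inside the minimum were *RPL22L1* with a mean of 130 counts and *RPL39L* with 149, and the nearest outside it were *RPL39* with 98.4 and *RPL36A* with 87.3. The others that fell short had means between 0.167 and 11.9 counts, among them *RPL3L*, *RPL21* and *RPL10L*.

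RNA-Seq was performed on HEK293doxERN2 cells, a derivative of the human embryonic kidney line HEK293 in which doxycycline switches on a FLAG-tagged transgene of ERN2/IRE1β, the epithelial paralogue of the ER stress sensor ERN1/IRE1α. All cells carried the transgene, and the groups differed only in 2 agents. No group held cells without the transgene that received doxycycline, so an effect of doxycycline itself cannot be told apart from one of ERN2. Doxycycline was given for 24 hours at 0 (No ERN2), 10 (Low ERN2) or 100 ng/mL (High ERN2), and the final treatment lasted 3 hours with either DMSO (control) or 200 nM thapsigargin (stress), an inhibitor of the ER calcium pump. Each of the 6 groups held 3 libraries, and nothing in the labels says that these came from separate cultures, so p-values measure the spread between these libraries only. HEK293 is a kidney-derived line and not the mucosal epithelium in which *ERN2* is naturally expressed.

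Ribosomal proteins are made on free ribosomes in the cytosol and carried into the nucleolus, where they are assembled with ribosomal RNA. Most of their mRNAs begin with a terminal oligopyrimidine (TOP) tract, a run of C and T directly at the transcript start through which growth signals control their translation. They lack the signal sequence that directs mRNAs of secreted and membrane proteins to the ER, where ERN1 and ERN2 reside.

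The labels were checked first. *ERN2* read 6.57 to 9.10 CPM (counts scaled to library size by TMM, the trimmed mean of M values) without doxycycline, 22.5 to 55.9 at 10 ng/mL and 249 to 309 at 100 ng/mL in vehicle, and under thapsigargin 10.4 to 14.2, 32.1 to 112 and 175 to 272. The chaperone gene *HSPA5* rose with thapsigargin from a mean of 503 to 3638 CPM in uninduced cells. All 8 HEK293 marker genes were at 1 CPM or more on average. Of 10 colon epithelium markers only *CDX2* was, *TFF3* was at 0 in every library, and the list summed to 3.61 to 9.57 CPM per library. Library totals ran from 14876416 to 24652240 counts, and replicate 2 of the High ERN2, stress group was the smallest.

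The sequences around the transcript start are shown for members whose mRNA levels are described below, because a TOP tract is the feature these genes are best known to share. RefSeq (GRCh38.p14) promoter entries were matched by symbol for 64 of the 79 members. Capitals mark the longest tract that begins with C, goes on with at least 4 further C or T, and has that C within 10 bases of the annotated start. Only the strand of the gene was searched. Each window holds 30 bases centred on the start, 5′ to 3′.
*RPL24* (chr3:101686704-101686733, minus strand): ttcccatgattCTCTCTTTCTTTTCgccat
*RPL36AL* (chr14:49620612-49620641, minus strand): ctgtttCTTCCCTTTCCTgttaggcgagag
*RPL7A* (chr9:133348203-133348232, plus strand): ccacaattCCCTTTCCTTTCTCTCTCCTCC
*RPS9* (chr19:54200843-54200872, plus strand): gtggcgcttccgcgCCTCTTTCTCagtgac
*RPLP2* (chr11:809952-809981, plus strand): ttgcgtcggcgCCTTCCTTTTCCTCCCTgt
*RPL7L1* (chr6:42879601-42879630, plus strand): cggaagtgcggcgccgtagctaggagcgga
*RPS27L* (chr15:63157463-63157492, minus strand): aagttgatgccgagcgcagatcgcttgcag
Each window holds upstream bases and the first bases of the transcript. In GENCODE 29 (GRCh38) *RPL24* spans chr3:101681091-101686782, *RPL36AL* chr14:49618519-49620685 and *RPS9* chr19:54200742-54249003, where *LILRA6* and *LILRB3* lie on the other strand. The first 5 genes carry a tract and the last 2, both paralogs, have none in this window. In all, 54 of the 64 members (84.4%) had such a tract, against 33.3% of all 27305 promoters searched and 32.4% of the 68 mitochondrial ribosomal protein genes. Among elongation factors and other mRNAs known to behave like TOP mRNAs, 15 of 19 had one.

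The members shared other features that the selection by name did not use. Their median transcript was 693 nucleotides long (359 to 3769), against 1785.5 for the 18337 coding genes matched to GENCODE 29. The median GC content of their transcripts was 50.4%, and it ran from 39.3% in *RPL22L1* to 62.8%. None of the 79 proteins had a hydrophobic stretch near its N terminus, defined as a mean Kyte-Doolittle hydropathy of at least 2 over 12 residues within the first 40, whereas 22.7% of the coding genes did. Introns or exons of 26 members contain 57 small nucleolar RNA genes, and 12 members lie on chromosome 19.

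Per kb of transcript, *RPS4X* (small subunit, encoded on the X chromosome) had the highest level of the members, 2166 CPM per kb. *RPS2*, also of the small subunit, was among the 3 highest with 1453. The lowest were *RPL39L* with 9.90, *RPL22L1* with 12.1 and *RPL17* with 19.3 CPM per kb. *RPL17* and *RPS10* overlap the readthrough genes *RPL17-C18orf32* and *RPS10-NUDT3* on the same strand, whose rows held 0 counts in every library. Whether this overlap lowers the counts of *RPL17* and *RPS10* was not tested. Levels of members with close copies are uncertain, since how the counting treated reads that match several genes is not given in the sources used here. The table holds 29 rows of ribosomal protein pseudogenes, which took 0.0027% to 0.0048% of the counts per library, whereas the reference lists 1135. *RPL36AL* averaged 92.6 CPM and its parent *RPL36A* only 4.47, *RPL39L* averaged 7.42 and *RPL39* 5.04, and *RPS27L* averaged 42.5 with *RPS27* at 271.

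Together the 79 genes took between 3.06% and 4.51% of all counts in a library. In the No ERN2, control group the share was 3.81%, 3.35% and 3.91% in replicates 1 to 3. It was 3.97%, 4.51% and 4.497% in the Low ERN2, control group and 3.44%, 4.38% and 4.13% in the High ERN2, control group. Under thapsigargin the shares were 3.07%, 3.11% and 3.59% without doxycycline, 3.24%, 3.605% and 4.16% at 10 ng/mL, and 3.72%, 3.27% and 3.06% at 100 ng/mL. The Low ERN2, control libraries all lay above those of uninduced vehicle cells, by a narrow margin for replicate 1, whereas the thapsigargin and vehicle groups overlapped at each of the 3 doses. In bulk RNA, less RNA per cell and fewer cells of a kind cannot be told apart, and a share falls when other genes rise.

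**Figure D1:**
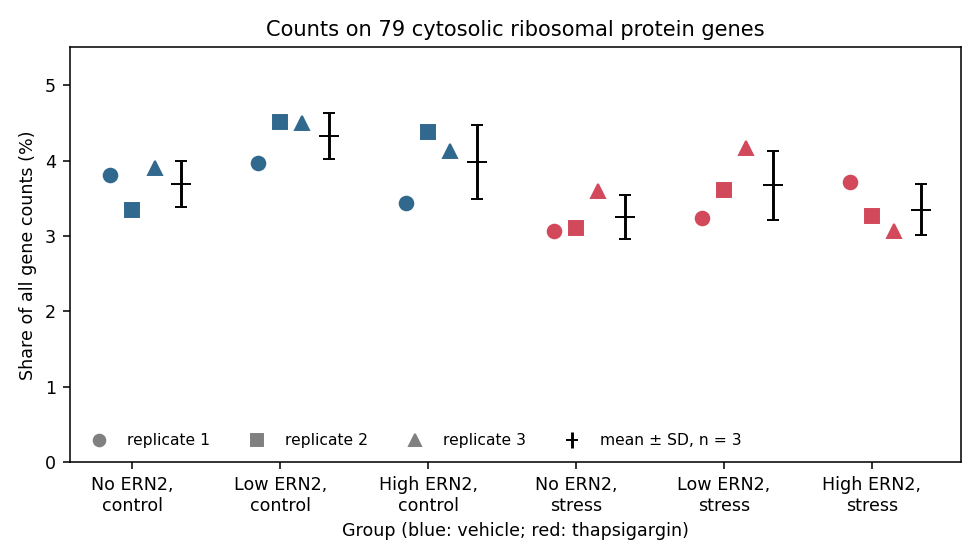
Share of all gene counts (%) that fell on the 79 cytosolic ribosomal protein genes in each of 18 libraries, with 1 symbol per replicate number and the mean ± SD (n = 3) of each group in black. Shares run from 3.06% to 4.51%, and in 4 of the 6 groups replicate 1 is the lowest, whereas in the High ERN2, stress group it is the highest.

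The members varied between replicates as a block. Their within-group SD on the log2 CPM scale had a median of 0.185, close to the 0.187 of 11035 genes in the same range of levels, but their deviations from the group means ran in parallel, with a median correlation between pairs of members of 0.69. The corresponding value was 0.39 for mitochondrial ribosomal protein genes, 0.57 for ribosome biogenesis factors, 0.30 for other short mRNAs and 0.09 for mRNAs with a hydrophobic N terminus. These lists were not matched to the members for level, and the part of level in the differences was not tested. *RPS4X* was the most even member (SD 0.063), followed by *RPL7L1* (0.067) and *RPL15* (0.073), and *RPS10* (0.44) and *RPS21* (0.39) were the most variable. Across the 79 genes the SD rose with GC content (Pearson's r = 0.52, Spearman's rho = 0.55) and had little relation to the mean level (r = −0.11). These values describe genes that share the same 18 libraries.

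GC-rich and GC-poor members moved apart in single libraries. The median deviation of the GC-rich members minus that of the GC-poor members, split at the median GC content and on the log2 scale over all 18 libraries, was −0.33 and −0.30 in replicates 2 and 3 of the High ERN2, stress group and −0.02 in replicate 1. It was 0.28 and 0.21 in replicates 2 and 3 of the Low ERN2, control group and 0.27 in replicate 3 of the Low ERN2, stress group. The comparisons below are therefore set beside their relation to GC content where it was marked, and beside the result after a smooth trend on GC content and length had been removed from every library.

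Induction of ERN2 was compared with uninduced cells to see whether these cytosolic mRNAs changed alongside the ER-targeted ones. At 10 ng/mL in vehicle, edgeR's quasi-likelihood test called none of the 79 members (threshold 0.01 after Benjamini-Hochberg adjustment), where 0.193% of the 14497 genes tested were called, 0.138% higher and 0.0552% lower. At an unadjusted p of 0.05, 42 members were higher and 2 lower, together 44 of 79 beside 30.5% of all genes, and DESeq2 called 3 members, all higher. The median log2 fold change of the members was 0.26, against 0.00 for all genes, and 66 of 79 lay above 0. Other short mRNAs (up to 1 kb and no members) had a median of 0.28, so the shift is not read as particular to the members.

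*RPL10*, a large-subunit protein added late in assembly, had the smallest p. It read 250, 207 and 269 CPM in replicates 1 to 3 of the No ERN2, control group and 289, 406 and 446 CPM in the Low ERN2, control group. The groups did not overlap, which held for 23 members in the upward direction beside 14.4% of all genes, and for 2 in the downward direction beside 15.3%. The log2 fold change was 0.65 ± 0.15 (SE, n = 3 per group; adjusted p = 0.0697). *RPS21* of the small subunit stood at 0.71 ± 0.17 (adjusted p = 0.0730) and *RPL13* of the large subunit at 0.55 ± 0.13 (adjusted p = 0.0725). All 3 were lowest, within the Low ERN2, control group, in replicate 1, and without that library 34 members passed, 32 higher and 2 lower. The share of all genes called in that fit is not given here, so the count is not read as particular to the members. The log2 fold change followed GC content over the members (r = 0.53) and over 13448 other genes (r = 0.64), and the median of the members was 0.20 after the GC and length trend had been removed. The part of GC content in the difference was not tested beyond that.

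At 100 ng/mL in vehicle, 1 member rose and 1 fell, that is 2 of 79 beside 8.33% of the 14444 genes tested (0.838% higher and 7.49% lower). At an unadjusted p of 0.05 there were 7 members beside 29.3% of all genes, and the groups did not overlap for 6 members upward and 3 downward, beside 19.7% and 16.1%. The large-subunit paralog *RPL36AL* read 64.9, 61.7 and 79.3 CPM in uninduced cells and 104, 129 and 119.8 CPM at 100 ng/mL, so that the groups did not overlap. Its log2 fold change was 0.73 ± 0.13 (SE; adjusted p = 0.00180). At 10 ng/mL it read 88.1, 99.3 and 106 CPM, above all uninduced libraries and overlapping those at 100 ng/mL, with a log2 fold change from uninduced cells of 0.51 ± 0.13 (adjusted p = 0.0758). Its call at 100 ng/mL held in 12 of 15 alternatives. The call was lost without replicate 1 of the No ERN2, control group (adjusted p = 0.0129), and also in alternatives that kept every library (adjusted p up to 0.0126).

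*RPS2*, a small-subunit protein at the channel where the mRNA enters, was the member that fell. It read 1401, 1299 and 1464 CPM in uninduced cells, 1282, 1644 and 1442 CPM at 10 ng/mL and 750.3, 1076 and 999.5 CPM at 100 ng/mL. The 100 ng/mL libraries lay below all others in vehicle, and the log2 fold change from uninduced cells was −0.60 ± 0.13 (adjusted p = 0.00846). The call was lost without replicate 1, 2 or 3 of the No ERN2, control group or replicate 3 of the High ERN2, control group (adjusted p = 0.0113 to 0.0295). It held in 10 of 15 alternatives, and among those that kept every library the adjusted p reached 0.0237. With the GC and length trend removed the log2 fold change of *RPS2* was −0.81 (adjusted p = 1.36e-05). The median of all 79 members was 0.11, against −0.01 for all genes tested.

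Among thapsigargin-treated cells, 10 ng/mL doxycycline was followed by no call in the members or in any of the 14509 genes tested (0% called; 3 members at an unadjusted p of 0.05, beside 4.22% of all genes; 0 members with DESeq2). The median of the members was 0.18, against 0.00 for all genes and 0.18 for other short mRNAs, and 76 of 79 lay above 0. The groups did not overlap for 8 members upward and 0 downward, beside 4.6% and 5.4% of all genes. In this comparison, libraries with the same replicate number deviated together. With the replicate number as a block 21 members passed, all of them higher, beside 3.89% of all genes in that fit (1.36% higher and 2.53% lower). That pairing was read from these same counts and is stated by no label, so the blocked calls depend on it. *RPL7A*, a large-subunit protein whose gene contains 4 small nucleolar RNA genes, was the first of them, at 0.37 ± 0.05 (adjusted p = 8.66e-05). *RPL13* followed at 0.32 ± 0.05 (adjusted p = 0.000356) and *RPL24* at 0.37 ± 0.06 (adjusted p = 0.000357). With the block and the GC and length trend removed, 12 members passed, again all of them higher, with no share of all genes given for that fit.

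In thapsigargin-treated cells at 100 ng/mL, 3 members rose (*RPL24*, *RPL36AL* and *RPL7L1*) and 3 fell, *RPS9* and *RPS2* among them, together 6 of 79 beside 10.5% of the 14358 genes tested (1.53% higher and 9% lower). At an unadjusted p of 0.05, 25 members were higher and 9 lower beside 35.6% of all genes, and the groups did not overlap for 26 members upward and 8 downward, beside 16.1% and 20.4%. *RPL24*, a large-subunit protein that reaches across to the small subunit, read 200.5, 214 and 234 CPM in the No ERN2, stress group and 344, 422 and 432 CPM in the High ERN2, stress group. The groups were far apart, with a log2 fold change of 0.89 ± 0.14 (adjusted p = 0.000605). It was called under each of 15 alternatives, with every single library left out in turn among them. *RPL36AL* read 58.5, 75.2 and 69.2 CPM against 103, 133 and 112 CPM, a log2 fold change of 0.78 ± 0.16 (adjusted p = 0.00447). *RPL7L1*, the paralog of *RPL7*, read 68.2, 80.4 and 75.7 CPM against 121, 119 and 119 CPM, a log2 fold change of 0.68 ± 0.14 (adjusted p = 0.00373).

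Of the members that fell, *RPS2* read 1165, 1222 and 1528 CPM without doxycycline and 852, 711 and 751 CPM at 100 ng/mL (−0.76 ± 0.13, adjusted p = 0.00159). *RPS9*, a small-subunit protein next to *RPS2* at the mRNA entry channel, read 232, 251 and 322 CPM against 199, 134 and 141 CPM (−0.76 ± 0.17, adjusted p = 0.00812). In both genes the groups did not overlap, and both are among the GC-richest of the members, with transcript GC contents of 59.2% and 59.5%. Over all members the log2 fold change fell with GC content (r = −0.46), as it did over 13321 other genes (r = −0.33). With the trend removed, *RPS2* stood at −0.57 (adjusted p = 0.00456) and *RPS9* at −0.60 (adjusted p = 0.00169). In that fit 12 members passed, 6 in each direction, and the share of all genes is not given here.

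Single libraries decided much of this comparison. Without replicate 2 of the High ERN2, stress group, the smallest library, *RPL24* alone was called. *RPS9* was called in 1 of the 6 fits with a library left out, *RPL7L1* in 2, *RPL36AL* in 3 and *RPS2* in 5. Without replicate 1 of that group 20 members passed, 12 higher and 8 lower, and without replicate 1 or replicate 3 of the No ERN2, stress group 3 did. These counts are not set against the share of all genes called in the same fits. *RPL26L1* stood at 0.70 (adjusted p = 0.0126) and its parent *RPL26* at 0.74 (adjusted p = 0.0135). The stalk proteins P1 and P2, which recruit elongation factors to the ribosome, were lower without passing the threshold, *RPLP2* at −0.67 ± 0.16 (adjusted p = 0.0111) and *RPLP1* at −0.51 ± 0.15 (adjusted p = 0.0279). Their anchor *RPLP0* stood at −0.14 ± 0.13, and *RPSA*, of the small subunit and also known as the laminin receptor, at −0.45 ± 0.15 (adjusted p = 0.0442).

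**Figure D2:**
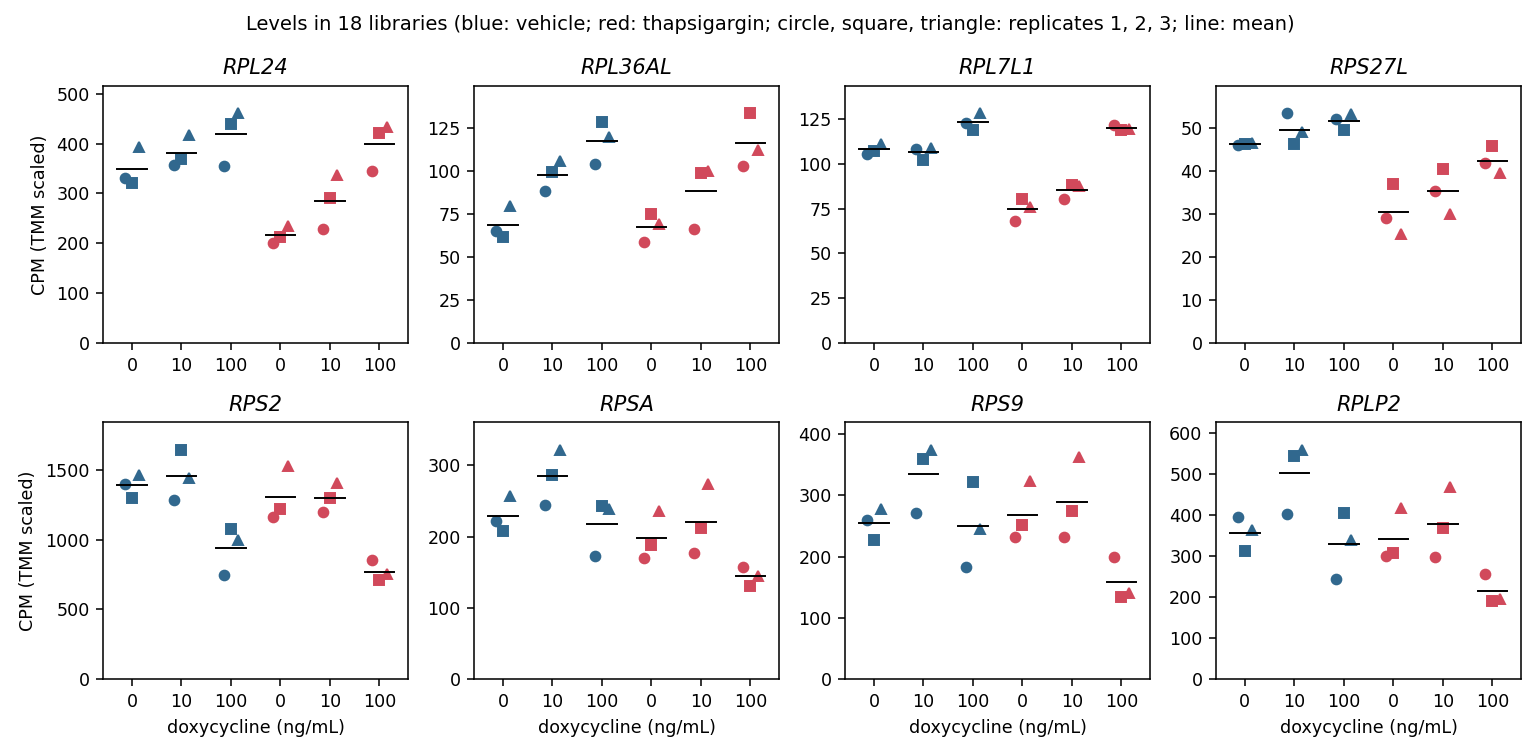
Level in CPM (TMM scaled, linear axes from 0) of 8 members in 18 libraries by dose of doxycycline, with blue for vehicle, red for thapsigargin, 1 symbol per replicate number and a line at the group mean. *RPL24* and *RPL7L1* are lower with thapsigargin at 0 ng/mL and not at 100 ng/mL, *RPL36AL* is higher at 100 ng/mL in both settings, and *RPS2* is lowest at 100 ng/mL in both.

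The comparisons at 100 ng/mL in vehicle and under thapsigargin share no library. *RPL36AL* and *RPS2* passed in both, in the same direction. Over the 79 members the log2 fold changes of the 2 comparisons had a Pearson's r of 0.45 and a Spearman's rho of 0.22, and 55 of 79 had the same sign. Over 14203 genes r was 0.58 and rho 0.29, with the same sign in 8129. At 10 ng/mL the 2 settings gave r = 0.58 and rho = 0.59 over the members, with the same sign in 67. Over 14302 genes r was 0.46 and rho 0.50, with the same sign in 9948. The median of the members lay above 0 in each of these comparisons, which by itself gives many equal signs. These are correlations across genes, which are not independent replicates.

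ER-targeted mRNAs were set beside the members. With 100 ng/mL doxycycline in vehicle, 643 of the 2029 genes tested with a hydrophobic N-terminal stretch fell and 18 rose, with a median log2 fold change of −0.47. Under thapsigargin 726 of 1994 fell and 8 rose, with a median of −0.71. The corresponding medians of the ribosomal protein genes were 0.11 and 0.15, with 1 and 3 lower. Those of all genes tested were −0.01 and 0.04, with 7.49% and 9% of all genes called lower and 0.838% and 1.53% called higher. With the GC and length trend removed the members stood at 0.04 and 0.16, and all genes at −0.02 and 0.11. The difference between the classes was not tested. Short mRNAs that are no members (up to 1 kb) had medians of 0.19 and 0.20, and among them those with a hydrophobic stretch, separated after the values were seen, stood at −0.05 (71 genes) and −0.17 (71 genes) and those without at 0.21 (460 genes) and 0.22 (453 genes). The short mRNAs with the smallest p in vehicle were *CD59* (−1.79) and *TIMP1* (−2.36), which both encode proteins that enter the ER. The ER-targeted genes with the smallest p in vehicle were *COL4A1* (−2.92) and *LAMC1* (−2.35), of the basement membrane. At 10 ng/mL the ER-targeted median stood at −0.08 in vehicle and −0.10 under thapsigargin.

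**Figure D3:**
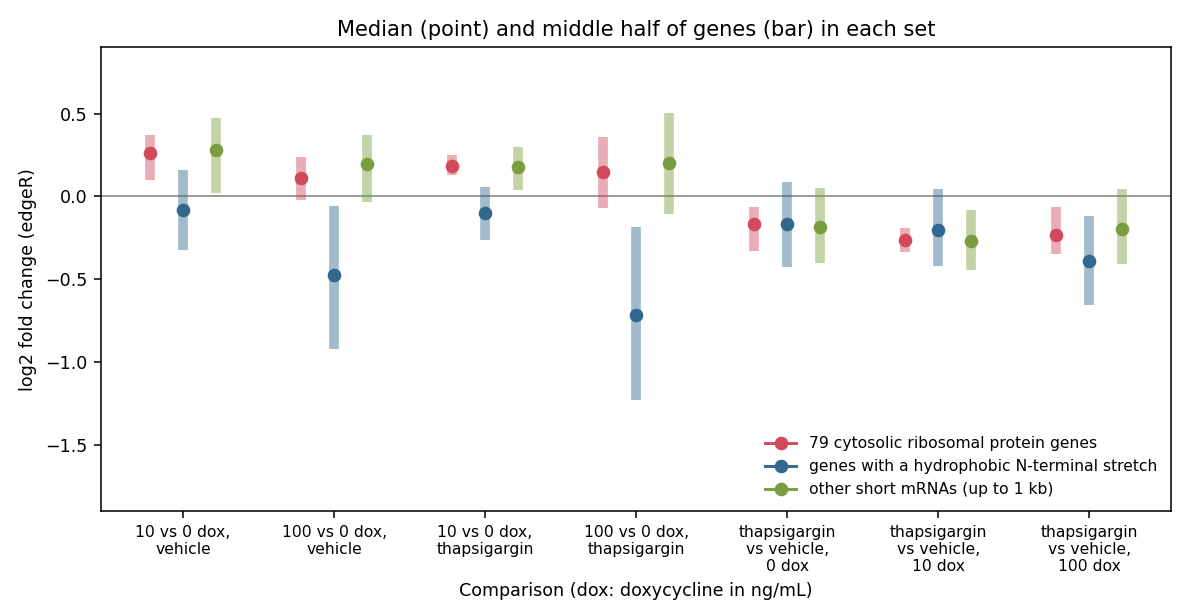
Median (point) and interquartile range (bar) of the log2 fold change of the 79 cytosolic ribosomal protein genes, of genes with a hydrophobic N-terminal stretch and of other short mRNAs in 7 comparisons. At 100 ng/mL doxycycline the ER-targeted median is −0.47 in vehicle and −0.71 under thapsigargin, whereas that of the ribosomal protein genes is 0.11 and 0.15. The median of all genes tested, not drawn, is −0.01 and 0.04.

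Thapsigargin was compared with vehicle at each dose of doxycycline to see how ER stress of 3 hours moved the same genes. In uninduced cells 8 members fell and none rose, beside 11.2% of the 14397 genes tested (6.45% higher and 4.74% lower). They were *RPL24*, *RPS27L*, *RPL9*, *RPS13*, *RPL7*, *RPL7L1*, *RPL7A* and *RPS24*, of which 4 belong to the large subunit, 2 to the small subunit and 2 are paralogs. The median of the members was −0.17, against −0.01 for all genes, and 6 of 79 lay above 0. Other short mRNAs had a median of −0.19, with 68 of 525 called lower and 16 higher. The downward shift is therefore not read as particular to the members. In 26 members the groups did not overlap in the downward direction, beside 20% of all genes, and in 1 upward, beside 20%. At an unadjusted p of 0.05, 29 members were lower and 1 higher, beside 35.9% of all genes.

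*RPL24* read 331, 320.3 and 392 CPM in vehicle and 200.5, 214 and 234 CPM under thapsigargin (log2 fold change −0.68 ± 0.11, adjusted p = 0.000989), and it was again called under each of 15 alternatives. *RPS27L*, the paralog of *RPS27* and a known p53 target, read 45.9, 46.1 and 46.5 CPM against 29.1, 36.9 and 25.4 CPM (−0.59 ± 0.14, adjusted p = 0.00891). *RPL9* read 271, 309 and 299.5 CPM against 203, 215 and 174 CPM (−0.56 ± 0.11, adjusted p = 0.00332), *RPL7* stood at −0.52 ± 0.09 (adjusted p = 0.00180) and *RPL7L1* at −0.52 ± 0.11 (adjusted p = 0.00381). In each of these genes all thapsigargin libraries lay below all vehicle libraries. The remaining 3 were *RPS13* (−0.55), *RPL7A* (−0.47) and *RPS24* (−0.43), and the call of *RPS24* was lost with any of the 6 libraries left out. Of those 6 fits, *RPS27L* and *RPL7A* were each called in 1 and *RPS13* in 2. *RPL7*, *RPL9* and *RPL7L1* were each called in 3. Without replicate 3 of the No ERN2, stress group 17 members passed, all lower, whereas without replicate 1 of that group or replicate 3 of the No ERN2, control group only *RPL24* did. The number was 2 without replicate 1 and 4 without replicate 2 of the No ERN2, control group. None of these counts is set against the share of all genes called in the same fit.

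*RPL22L1* moved the other way. This paralog of *RPL22* read 5.05, 6.08 and 5.37 CPM in vehicle and 8.55, 8.38 and 8.31 CPM under thapsigargin, without overlap, and its log2 fold change of 0.62 ± 0.16 did not pass (adjusted p = 0.0143). At 10 ng/mL it stood at 0.58 ± 0.21 and at 100 ng/mL at 0.45 ± 0.20, with groups that did not overlap at either dose. Its parent *RPL22* stood at −0.31, −0.06 and −0.03 in the same order. At 94 to 237 counts per library *RPL22L1* is the least precisely counted member together with *RPL39L*.

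With 10 ng/mL doxycycline the same comparison called no member, beside 1.45% of 14607 genes (1.16% higher and 0.294% lower). The groups did not overlap for 20 members downward and 1 upward, beside 12.9% and 15.6%. At an unadjusted p of 0.05, 18 members were lower and 1 was higher beside 24.7% of all genes, and DESeq2 called 0. The median was −0.26 against −0.01 for all genes and −0.27 for other short mRNAs, and *RPL22L1* alone of the members lay above 0. The smallest p-values belonged to *RPS27L* (−0.50 ± 0.14, adjusted p = 0.0614), *RPL23* (−0.39 ± 0.12, adjusted p = 0.0864) and *RPL23A* (−0.39 ± 0.13, adjusted p = 0.0956). *RPS27L* read 53.3, 46.2 and 49.0 CPM in vehicle and 35.3, 40.4 and 29.9 CPM under thapsigargin, without overlap. With the GC and length trend removed it passed (−0.63, adjusted p = 0.00611).

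With 100 ng/mL no member passed either, beside 0.201% of 14427 genes (0.18% higher and 0.0208% lower). The groups did not overlap for 6 members downward and 1 upward, beside 15.1% and 10.7%. At an unadjusted p of 0.05, 15 were lower and 2 higher beside 27% of all genes, and DESeq2 called 0. The median was −0.24 against −0.00 for all genes, and after removal of the GC and length trend it was −0.13 against 0.08. Other short mRNAs had a median of −0.20 before that removal. *RPSA* had the smallest p (−0.57 ± 0.16, adjusted p = 0.0727), and it read 172, 243 and 239 CPM in vehicle and 158, 131 and 145 CPM under thapsigargin. *RPLP2* stood at −0.59 ± 0.19 (adjusted p = 0.101) and *RPL10* at −0.74 ± 0.24 (adjusted p = 0.104). Without replicate 1 of the High ERN2, stress group 13 members passed, 12 lower and 1 higher, a count not set against the share of all genes in that fit. GC-rich members had the lower values here (r = −0.52 over the members and over other genes alike), whereas in uninduced cells the relation ran the other way (r = 0.25), as shown in the plot of fold changes by GC content.

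**Figure D4:**
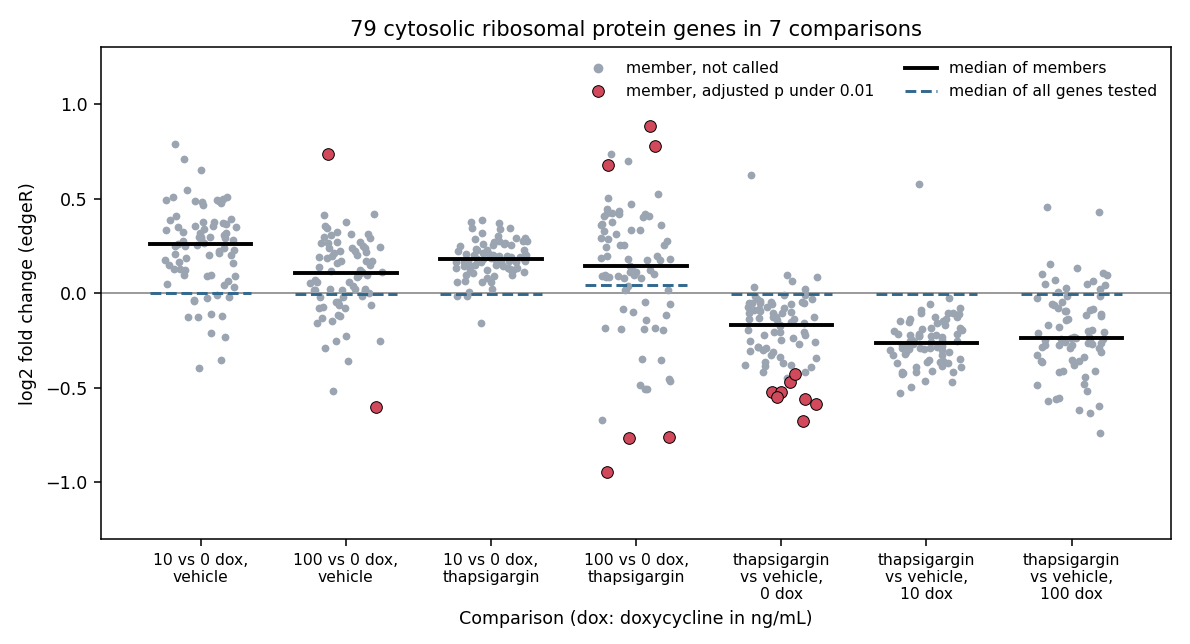
log2 fold change of each of the 79 members in 7 comparisons, with red points for members at an adjusted p under 0.01, a black line for the median of the members and a dashed line for the median of all genes tested. The black medians lie above 0 for doxycycline (0.11 to 0.26) and below 0 for thapsigargin (−0.26 to −0.17), and most single members are not called. Medians of other short mRNAs, not drawn, are 0.18 to 0.28 for doxycycline and −0.27 to −0.19 for thapsigargin.

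**Figure D5:**
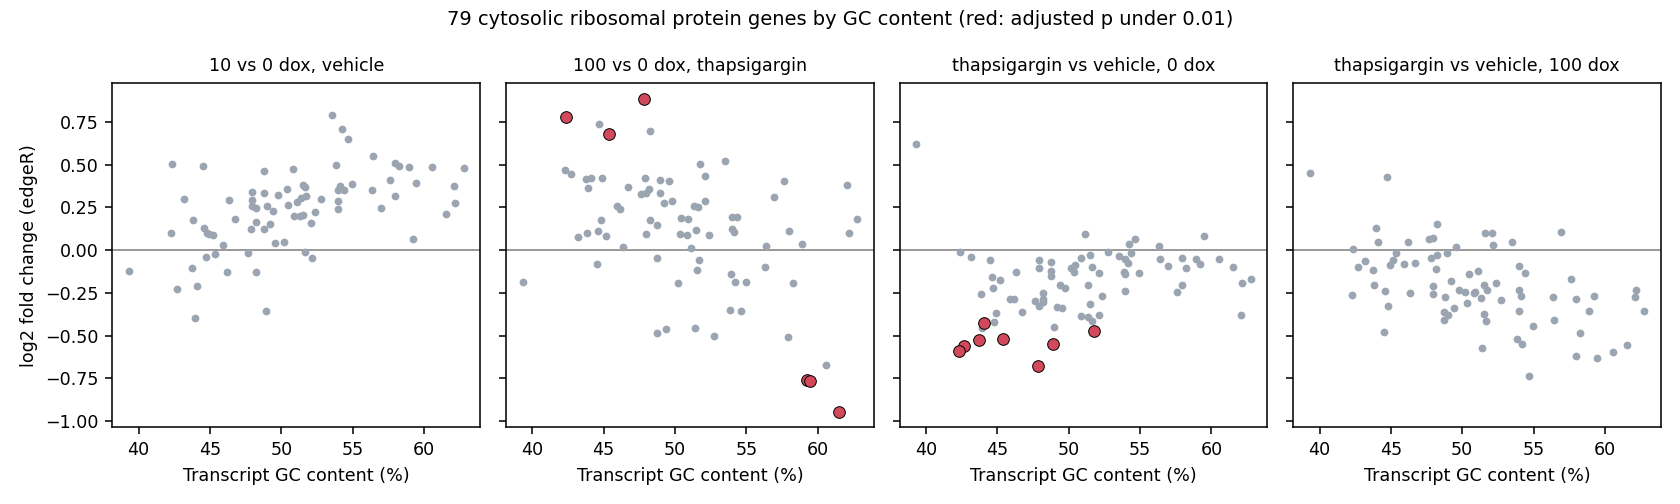
log2 fold change of the 79 members against the GC content of their transcripts in 4 comparisons, with called members in red. The cloud rises with GC content at 10 ng/mL in vehicle (r = 0.53) and falls with it at 100 ng/mL under thapsigargin (r = −0.46) and for thapsigargin against vehicle at 100 ng/mL (r = −0.52).

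Whether the response to thapsigargin differed with the dose of doxycycline, which induces ERN2, was tested as an interaction over 12 libraries. No member passed at 10 ng/mL, where 0% of 14857 genes did (3 members at an unadjusted p of 0.05, beside 4.47% of all genes; 0 with DESeq2), and none at 100 ng/mL, where 0.0406% of 14768 genes did, 0.00677% higher and 0.0339% lower (19 members, 17 higher and 2 lower, beside 24.7%; DESeq2 called *RPL7L1*). The smallest p-values at 100 ng/mL were those of *RPL24* (0.72, adjusted p = 0.0644), *RPL7L1* (0.59, adjusted p = 0.0601) and *RPS24* (0.56, adjusted p = 0.0744). For *RPL24* the log2 fold change from thapsigargin was −0.68 ± 0.11 in uninduced cells and −0.04 ± 0.14 at 100 ng/mL, where its levels were 355, 439 and 460 CPM in vehicle and 344, 422 and 432 CPM under thapsigargin, which overlapped. *RPL7L1* read 122, 119 and 128 CPM in vehicle and 121, 119 and 119 CPM under thapsigargin at 100 ng/mL. The comparisons within thapsigargin and those against vehicle share the No ERN2, stress libraries, so that a low value there lowers the one and raises the other.

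Members with and without a TOP tract were set side by side. For thapsigargin in uninduced cells the median was −0.14 in the 54 members with a tract (5 called) and −0.29 in the 10 without (2 called). With 100 ng/mL under thapsigargin it was 0.12 (3 called) and 0.38 (1 called), and at 100 ng/mL in vehicle 0.10 and 0.13. Of the 10 without a tract 3 are paralogs, and the 2 groups differ in size, so that nothing particular to the tract is read from these values.

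Related gene groups were set beside the members, with no test of a difference between groups. With thapsigargin in uninduced cells 6.45% of all genes tested were called higher and 4.74% lower. At 10 ng/mL 1.16% were called higher and at 100 ng/mL 0.18%, so that calls became fewer over all genes too. Of 10 small nucleolar RNA host genes, noncoding transcripts of the TOP class, 7 rose with thapsigargin in uninduced cells (median 1.14), with *SNHG12* at 1.64 and *SNHG1* at 1.44, and 5 rose at 10 ng/mL (median 0.88) and 0 at 100 ng/mL in edgeR (median 0.27, 3 at an unadjusted p of 0.05). Of 27 elongation factor and other TOP-like genes 5 fell in uninduced cells (median −0.23), among them *HNRNPA1* (−0.71) and *PFDN5* (−0.55), and none rose. Of 46 ribosome biogenesis factors 2 rose, *POLR1B* (0.53) and *RRP12* (0.72), and none fell (median 0.26). Of 76 mitochondrial ribosomal protein genes 3 fell and none rose (median −0.10), with *MRPL33* at −0.63 and *MRPL13* at −0.68. For biogenesis factors and mitochondrial ribosomal protein genes the called share was below that of all genes in the same direction. In vehicle at 100 ng/mL 1 mitochondrial ribosomal protein gene rose, *MRPS18B* (0.56), *SNHG15* rose (0.80), and *TPT1*, the TOP mRNA of translationally controlled tumor protein, fell (−0.72). No biogenesis factor was called there in either direction, with *RRP12* at 0.47 and *GRWD1* at 0.47 (9 at an unadjusted p of 0.05). Of all genes tested in that comparison, 0.838% were called higher and 7.49% lower.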

How the data were processed

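RNA-Seq libraries of HEK293doxERN2 cells were prepared with a stranded mRNA kit and read as single ends. The authors used STAR, within their VIPER workflow, and deposited counts per gene symbol with no normalization. The submitters' processing notes name the genome build hg38. Which annotation and strand option they counted with is not given in the sources used here, so antisense overlaps cannot be told apart. Each of the 18 columns was matched to its sample by the label. Symbols had turned into dates in 28 rows, and 0 columns were unused. Groups came from the labels.

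Each comparison used the whole table and only its own groups: filterByExpr at a minimum count of 10, TMM, and edgeR 4.0.16 (glmQLFit and glmQLFTest; R 4.3.3). P-values were adjusted by Benjamini-Hochberg over all genes and called under 0.01. The SE is the log2 fold change over the square root of F. CPM were scaled by TMM over 18 libraries. An exact permutation of 3 against 3 libraries cannot go below 0.1. The precision of log2 fold changes was set by 3 libraries per group and not by counting. By a chi-square test of their counts, no 2 libraries of the same group were duplicates.

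For 10 against 0 ng/mL under thapsigargin, deviations from the group means correlated between same-numbered libraries in all 3 pairs (r = 0.54 to 0.68 over all genes). The blocked result is therefore given beside the unblocked one. The numbers come from the sample titles, which state no pairing. It was read from the same counts the block was used on, so the blocked p-values cannot test it. Over all pairs of groups, same-numbered libraries correlated by 0.09 on average, with 22 of 45 above 0.1. Differently numbered libraries correlated by −0.05 on average and by up to 0.70, with 39 of 90 above 0.1. In no other comparison did all pairs exceed 0.1.

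Alternatives were DESeq2 1.42.0, RLE factors, library totals, TMM without the members, no filter, all 6 groups, the replicate block, removal of a smooth trend (span 0.3) on GC content and length, an adjusted p of 0.05, and each library left out. The tests were checked on simulated data. Lengths and GC content are medians over coding transcripts of GENCODE 29. The members and lists were chosen with earlier results of these data known. By rule, named genes are the stalk genes and *RPSA*, in each comparison the called members with the 5 highest and 5 lowest log2 fold changes (the 3 smallest p where fewer than 3 passed), the paralogs with their parents, the 3 highest and 3 lowest per kb, the 2 genes on each side of the count minimum, 2 genes per list in 2 comparisons, and *ERN2*, *HSPA5* and *DDIT3*. A few genes within the rule are not reported here. Other members were named after their values were seen, and the split of the short mRNAs was made then too. Marker lists of fibroblasts (14.6 to 33.7 CPM summed per library, mainly *COL1A1*) and leukocytes (0.569 to 2.66 CPM) completed the check of cell identity. Figures were drawn with matplotlib 3.10.9.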

Additional observations from a re-analysis of the deposited data

Results flagged for a closer look

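*HSPA5*, used above as a check of the labels, responded less to thapsigargin at 100 ng/mL doxycycline than in uninduced cells, with an interaction of −1.58 on the log2 scale (edgeR, adjusted p = 0.00897). *DDIT3*, the other gene used to check thapsigargin, stood at −1.32 in the same interaction (adjusted p = 0.0101), just short of the threshold.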

How the results depend on the processing

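The calls rested on 3 libraries per group, and the part of GC content, library size and replicate in them was not tested beyond the values here. Unless a share of all genes stands beside it, a count below is not set against the whole table. Such a count is not read as particular to the members. Members called with DESeq2 numbered 3 (all higher) at 10 ng/mL in vehicle, 10 (6 higher) at 100 ng/mL under thapsigargin, 15 (14 lower) for thapsigargin in uninduced cells and 1 in the interaction at 100 ng/mL. Without a filter they numbered 10 and 10 in the first 2 of these. With all 6 groups in 1 fit 12 passed at 100 ng/mL under thapsigargin, and at an adjusted p of 0.05 18 passed there and 22 for thapsigargin in uninduced cells. With the GC and length trend removed 4 passed (1 higher and 3 lower) at 100 ng/mL in vehicle, 12 at 100 ng/mL under thapsigargin and 1 for thapsigargin at 10 ng/mL. The replicate block gave 0 at 100 ng/mL in vehicle, 21 at 10 ng/mL under thapsigargin (beside 3.89% of all genes), 24 for thapsigargin in uninduced cells and 44 (43 lower) at 10 ng/mL. The block with the trend removed gave 12, 32 and 41 in the last 3, 13 at 100 ng/mL under thapsigargin and 2 in the interaction at 100 ng/mL. Same-numbered libraries correlated by −0.20 to 0.44 on average in the comparisons other than 10 ng/mL under thapsigargin, so their block calls rest on a shared number only. Leaving out each library in turn gave 0 to 34 members at 10 ng/mL in vehicle, 0 to 3 at 100 ng/mL in vehicle, 1 to 20 at 100 ng/mL under thapsigargin, 1 to 17 for thapsigargin in uninduced cells, 0 to 13 at 100 ng/mL and 0 to 4 in the interaction at 100 ng/mL. The median of the members in that interaction was 0.07, −0.10 with library totals alone (where the median of all genes shifted by −0.18) and −0.13 to 0.16 with a library left out. In the interaction at 10 ng/mL it was −0.08, and −0.20 to 0.04 with a library left out. The medians of the 7 comparisons of 2 groups kept their sign in all alternatives. The cause of these changes was not tested. No direction was reversed among the gene and comparison pairs that were refitted, which are the members past the threshold or with the smallest p in each comparison.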
